A study of Mus musculus with 2 samples.

Results

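The 5p arms of the miRNAs numbered miR-6896 to miR-7093 are the products of short hairpins that are catalogued one after another. They were chosen by name, as every mouse miRNA of the array in this run of numbers, with or without a letter, and with the ending 5p. The rule found 200 of the 1881 miRNAs of the array, and it used no measured value. The 3p arms of the same numbers gave another 198 miRNAs, and 1483 miRNAs carried other numbers. KPC-exosomes came from the supernatant of a murine pancreatic cancer cell line, which was made from tumour tissue of mice with the alleles KrasLSL-G12D/+ and Trp53LSL-R172H/+ and the Pdx1-Cre transgene. In these alleles a stop cassette is removed by Cre, here in cells of the pancreatic lineage in which the Pdx1 promoter is active. MPDC-exosomes came from the supernatant of a purchased murine pancreatic ductal epithelial cell line, the control of the comparison. KPC cells were kept with 20% fetal bovine serum and MPDC cells with 10%, and both supernatants were collected after 48 h in exosome-free medium, so that the cell line and its culture medium cannot be told apart. Exosomes, the small vesicles that cells release, were isolated by differential ultracentrifugation. Each condition had 1 preparation on 1 array, and both arrays were on the same slide, so no value below has a replicate check and no test between the conditions was made.

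Mirtrons are miRNA precursors made by splicing. A short intron is cut out of its host transcript, folds into a hairpin and enters the miRNA pathway at the Dicer step, without the cut by Drosha that frees other miRNA hairpins from their transcripts. The ends of such a hairpin are therefore the ends of an intron, GU at the 5′ end and AG at the 3′ end. In tailed mirtrons only 1 end of the hairpin is a splice site, and the tail on the other side is trimmed away. As in other miRNAs, bases 2 to 8 of the mature strand, the seed, pair with target transcripts.

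The label was checked on the hairpins of RefSeq (GRCm38.p6). Of the 178 hairpins with these numbers, 165 (92.7%) ended with AG, against 73 of the 827 other hairpins of the table (8.83%). All 178 (100%) lay within the span of a protein-coding gene, against 57.3% of the others. The table held no hairpin for 5 members with a mature sequence, and the mature strand of each of these 5 also lay within such a span. GU at the first bases was less frequent, with 27 hairpins (15.2%, against 6.05% of the others), and 21 (11.8%) had both GU and AG. Most hairpins thus had the AG of an intron's 3′ end and other bases at the 5′ end. A tailed mirtron can have this form. The first bases also depend on where a hairpin record begins, however, so a 5′ tail is not shown. The table used here gives no exons, so whether each hairpin fills an intron was not examined. The hairpins were short, with a median of 66 bases against 82 for the others. The 5p arm began a median of 5 bases into the hairpin, and it began at the first base in 21 of 170 hairpins.

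The first 2 hairpins below have intron letters at both ends and the other has them only at the 3′ end. The capitals mark the first 2 and the last 2 bases. Mir6923 lies at chr11:67099804-67099875 on the plus strand, within Myh3, a myosin heavy chain gene of developing muscle. Mir6985 lies at chr19:4263818-4263878 on the minus strand, within Ssh3, which encodes a slingshot phosphatase. Mir7039 lies at chr5:144896732-144896816 on the minus strand, within Smurf1, which encodes a ubiquitin ligase of the BMP and TGF-beta pathways.
Mir6923: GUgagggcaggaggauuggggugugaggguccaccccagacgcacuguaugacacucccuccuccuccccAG
Mir6985: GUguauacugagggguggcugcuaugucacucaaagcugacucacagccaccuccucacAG
Mir7039: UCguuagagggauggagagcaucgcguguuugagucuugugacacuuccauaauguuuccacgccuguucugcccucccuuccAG

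The mature 5p sequences that the results turn on follow, with the seed in capitals. They were chosen because their signals differed most between the arrays, because they were the brightest, or because 1 array did not detect them. The first 7 lines hold members with the higher signal on the array of KPC-exosomes, miR-7047-5p to miR-6937-5p had nearly equal signals, and the rest were brighter on, or detected only on, the array of MPDC-exosomes.
miR-7039-5p: aGAGGGAUggagagcaucgcgu
miR-6985-5p: uACUGAGGgguggcugcuaugu
miR-7014-5p: uUGGGUGCuguggaagggacag
miR-6966-5p: cUCGGGGAuguggacagcaca
miR-7051-5p: uCACCAGGaggaaguuggguca
miR-6962-5p: aAGGACCUggugggagaucu
miR-7003-5p: uGUGGGGAgaagcugcggcag
miR-7047-5p: uGAGGGAGgagggcugggucuga
miR-6931-5p: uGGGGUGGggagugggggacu
miR-6937-5p: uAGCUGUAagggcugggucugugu
miR-7036a-5p: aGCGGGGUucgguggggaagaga
miR-7005-5p: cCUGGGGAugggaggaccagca
miR-6969-5p: cAGCAGAGuagggagcaaaaga
miR-6915-5p: aGGUCAGAgcagauggagguucgu
miR-6918-5p: uGCUGAGGacgggauuagguucu
miR-6923-5p: gUGAGGGCaggaggauuggggugu

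These strands are rich in guanine. Over the 176 members with a mature sequence the median guanine share was 43.7% and the median cytosine share 13.6%. The 3p arms were the reverse, with medians of 14.3% guanine and 40.9% cytosine, and the other miRNAs had 26.1% and 22.7%. A run of GGGG occurred in 67 of the 176 members (38.1%) and in 8.98% of the other miRNAs. The seed held GGG in 95 members (54.0%), against 9.92% of the miRNAs that are no members. All of these shares are features of the sequences and hold no measurement.

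The array reads each member with 2 or 3 short DNA probes, 410 in all, of 10 to 21 bases and with 10 to 15 spots per probe. The 360 probes of members with a mature sequence were each fully complementary to it and reached its 3′ end, and 186 of them covered no base of the seed. For 190 members there were exactly 2 probes, the second 1 base longer at its 3′ end. A probe was detected when its total signal, an intensity in arbitrary units, exceeded 3 times the error that the scanner software gave for it. Detected probes of a miRNA were added up to give its signal. No spot of a member was saturated.

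Most members were detected, and more of them on the array of MPDC-exosomes. In KPC-exosomes 127 of the 200 members were detected (63.5%), against 41% of all 1881 miRNAs. In MPDC-exosomes 154 were detected (77.0%), against 54.8% of all. Both arrays detected 123 members (61.5%), 4 were found in KPC-exosomes only, 31 (15.5%) in MPDC-exosomes only, and 42 (21.0%) on neither array. Over all miRNAs 38.6% were detected on both arrays, 2.45% in KPC-exosomes only, 16.2% in MPDC-exosomes only and 42.7% on neither. The shares found on 1 array only were thus like those of the whole array. Members whose hairpin had both GU and AG were detected on at least 1 array in 20 of 21 cases, and those with other hairpin ends in 121 of 156 (77.6%). The first of these groups is small, their base composition was not compared, and no such counts were made for other miRNAs. With a limit of 5 errors the members' counts were 109 and 139, and with 2 errors 134 and 162.

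**Figure D1:**
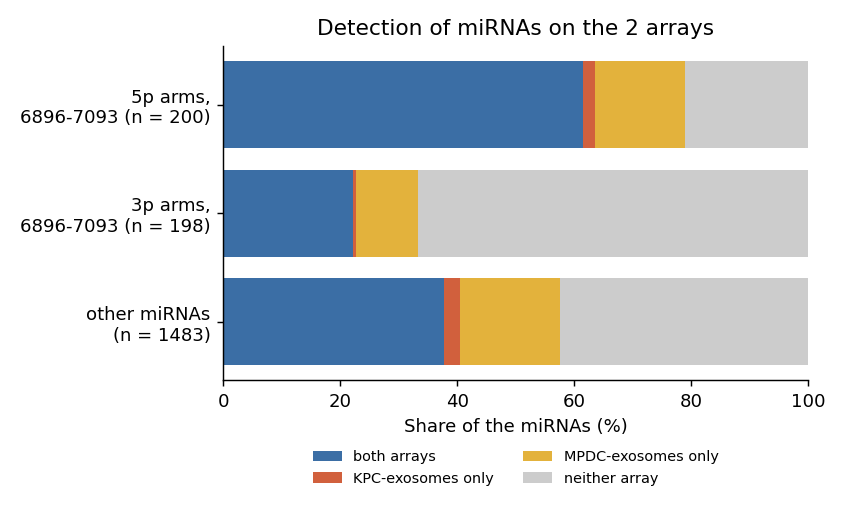
Each bar splits 1 set of miRNAs by the arrays that detected them, as a share of the set in percent. Of the 5p arms 61.5% were detected on both arrays, against 22.2% of the 3p arms of the same numbers and 37.7% of the other miRNAs.

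The 2 arms of these hairpins were detected at very different shares. Among the 3p arms 45 of 198 (22.7%) were detected in KPC-exosomes and 65 (32.8%) in MPDC-exosomes. Over the 198 hairpins with both arms on the array, KPC-exosomes showed the 5p arm alone in 97, the 3p arm alone in 16, both in 29 and neither in 56. In MPDC-exosomes the 5p arm was alone in 101, the 3p arm alone in 13, both were detected in 52 and neither in 32. Signals of arms were not set against each other, because they come from different probes. In 27 hairpins both arms were detected on both arrays. Before normalization both arms were lower in KPC-exosomes in 23 of them, both were higher in 1, and the 5p arm was higher and the 3p arm lower in 3. After quantile normalization all 44 of the 3p arms detected on both arrays were higher in KPC-exosomes, against 3 before it. Of the 27 hairpins, 15 then had both arms higher, 11 had the 5p arm lower and the 3p arm higher, and 1 had no difference in the 5p arm. The hairpin with both arms higher before normalization was Mir7033, within Pom121, which encodes a nuclear pore protein. The 5p arm had 996 ± 71.0 in KPC-exosomes and 276 ± 19.6 in MPDC-exosomes, and the 3p arm had 460 ± 33.0 and 64.8 ± 4.80, each with the scanner error.

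Mirtron products known from earlier work were also read on both arrays. miR-1224-5p had a signal of 27573 ± 2262 in KPC-exosomes and 28167 ± 2169 in MPDC-exosomes. miR-877-5p had 76.3 ± 4.02 and 97.3 ± 5.01. Of the 8 arms of miR-877, miR-1224, miR-702 and miR-1981, 5 were detected in KPC-exosomes and 6 in MPDC-exosomes.

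Detection went with base composition. The probes of members detected on both arrays had a median GC share of 59.9%, those of members found in MPDC-exosomes only 54.8%, and those of members found on neither array 51.5%. For the 3p arms the medians were 65.5% for both arrays and 54.1% for neither, and for the other miRNAs 58.1% and 48.5%. Probe GC over all members had a median of 58.6%, against 55.6% for the 3p arms and 51.7% for the others. When miRNAs with a mature GC share from 50% to 65% were taken alone, 64.7% of 116 members were detected in KPC-exosomes and 82.8% in MPDC-exosomes. In the same range the shares were 25.0% and 34.6% of 104 3p arms, and 42.8% and 55.6% of 554 other miRNAs. The sets thus differed in detection at a like GC share.

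Detection rose with the guanine share of the miRNA among members and among other miRNAs. Among members with 50% guanine or more, 85.5% of 55 were detected in KPC-exosomes, against 88.7% of 62 miRNAs that are no members. Between 40% and 50% the shares were 63.6% of 66 members and 72.9% of 133 others, and between 30% and 40% they were 44.7% of 47 members and 43.6% of 287 others. In MPDC-exosomes the members' shares in the same order were 92.7%, 81.8% and 59.6%, and those of the others 96.8%, 85.0% and 58.5%. In each of these bins the members' share was within 10 percentage points of that of the others. Only 8 members lay under 30% guanine. The signal also went with the guanine share, with Spearman's rho of 0.27 in KPC-exosomes (111 members) and 0.38 in MPDC-exosomes (136 members). The difference between the arrays did not, with rho of -0.08 over 109 members. These are descriptions across miRNAs that share an array and its probe design. The part of base composition in the detection of the members was not tested.

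**Figure D2:**
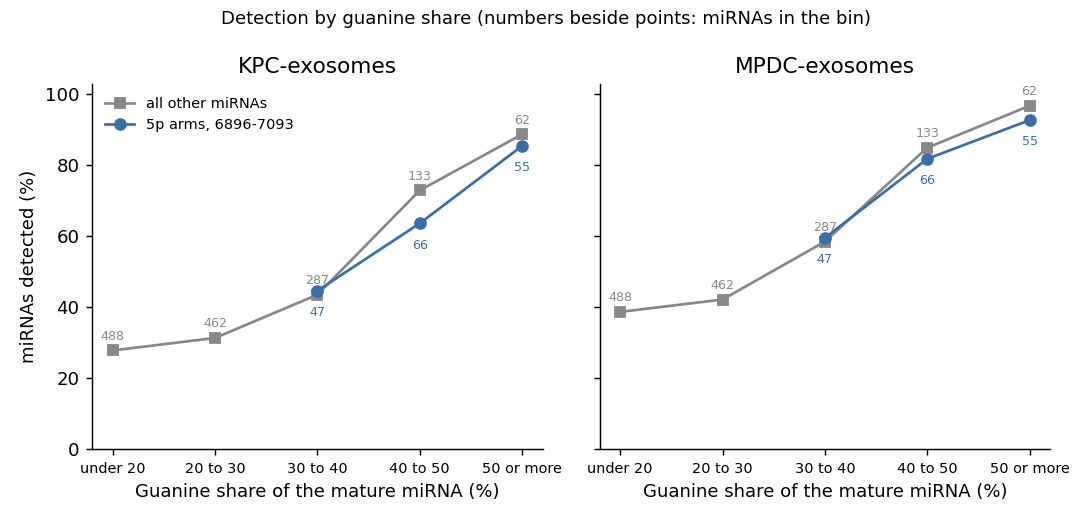
The share of miRNAs detected (vertical axis, percent) is plotted against the guanine share of the mature miRNA (horizontal axis, percent) for each array, with members as circles and all other miRNAs as squares, in bins of at least 20 miRNAs. Both lines rise together, to 85.5% and 88.7% in KPC-exosomes and to 92.7% and 96.8% in MPDC-exosomes in the bin of 50% or more.

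Most members were dim. The detected members had a median signal of 26.8 in KPC-exosomes, from 3.11 to 4217, and of 54.4 in MPDC-exosomes, from 3.34 to 25094. A signal of at least 100 was reached by 41 members in KPC-exosomes and by 61 in MPDC-exosomes, and one of at least 1000 by 6 and by 10. Over the 123 members detected on both arrays the medians were 29.0 and 97.8. Over all detected miRNAs the median signals were 29.9 in KPC-exosomes and 51.2 in MPDC-exosomes, so that low signals were not particular to the members. Signals of different miRNAs come from different probes, so these medians and the ranks given below are descriptions only.

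Before normalization the members were dimmer in KPC-exosomes, as the miRNAs of that array were in general. The log2 difference, KPC-exosomes minus MPDC-exosomes, had a median of -1.39 over the 123 members, with quartiles of -2.55 and -0.19 and a range from -5.14 to 5.68. Over all 726 miRNAs the median was -1.37. Of the 123 members 99 were lower and 24 higher, and against 2 scanner errors 87 were lower, 17 higher and 19 within the error. Of all 726 miRNAs 591 were lower and 135 higher, and against 2 scanner errors 533 were lower, 107 higher and 86 within the error. Quantile normalization, which gives both arrays the same distribution of signals and was used for the deposited values, raised the log2 differences of the members by 1.40 to 4.53, with a median of 1.81. The median of the members then was 0.45, against 0.53 over all. Of the members 76 were then higher and 46 lower, and of all 726 miRNAs 454 and 271. The members' median thus stayed within 0.08 of that of all miRNAs while its sign turned with the normalization. The 4 spike-in RNAs of the array differed by -0.31 to 0.38 before normalization, with a mean of 0.03. Less miRNA in all of the RNA from KPC-exosomes and lower levels of these miRNAs cannot be told apart.

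**Figure D3:**
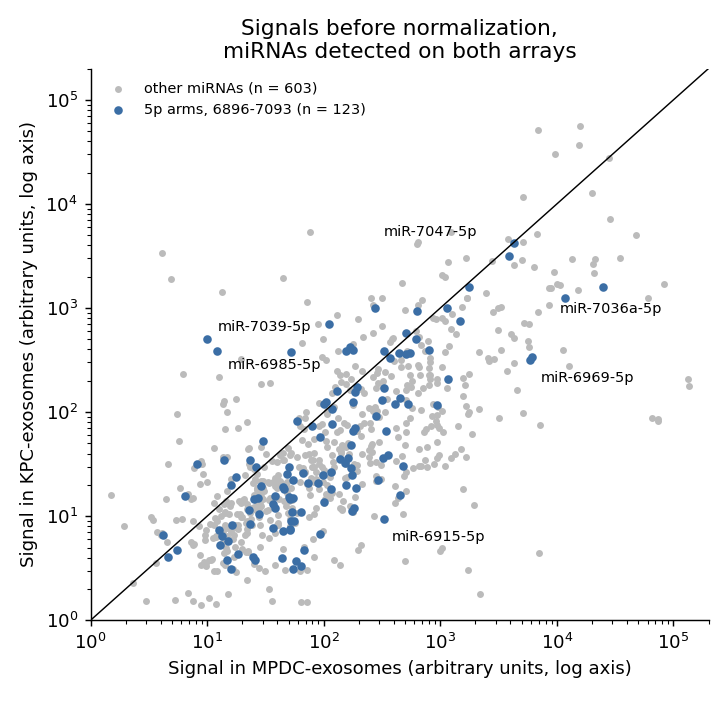
Signals before normalization in KPC-exosomes (vertical, log axis) are plotted against those in MPDC-exosomes (horizontal, log axis) for the miRNAs detected on both arrays, in arbitrary units, with members in blue and the line marking equal signals. Of the 123 members 99 lie under the line, and they are spread through the cloud of the 603 other miRNAs.

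By the filter used in the study, detection on at least 1 array and a difference of at least 2-fold after quantile normalization, 53 members were higher in KPC-exosomes (26.5%, against 18% of all miRNAs) and 54 were lower (27.0%, against 24.5% of all). Among the miRNAs detected on at least 1 array the shares were 33.5% higher and 34.2% lower for members, and 31.5% and 42.7% for all. Without normalization 15 members were higher (7.5%, against 6.38% of all) and 103 lower (51.5%, against 38.9% of all). At least 1 array detected 158 members (79%) and 1077 of all miRNAs (57.3%). Among these the calls without normalization were 15 and 103 of 158 members, and 120 and 732 of 1077 miRNAs. The share called lower was thus not larger for members once only detected miRNAs were counted. Of the 53 higher members 25 were not higher before normalization, and 3 of these had been at least 2-fold lower. Of the 339 higher miRNAs of the whole array the counts were 158 and 26, so such calls were not particular to the members. The 3 members, miR-6968-5p, miR-6977-5p and miR-7023-5p, had signals of 5.23 to 6.39 in KPC-exosomes and 13.0 to 15.2 in MPDC-exosomes. Of the 54 lower members 23 were measured on both arrays and 31 had no signal in KPC-exosomes. Of all 460 lower miRNAs the counts were 155 and 305.

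The direction was therefore followed through the quantile normalization and 9 other ways to scale or sum the signals. These settings are not separate checks. The deposited log2 values are among them and repeat the quantile normalization within 1.11e-05. No normalization and scaling by the spike-in controls, the 75th percentile or the median differ from each other only by a constant. The number of settings thus overstates how many distinct checks a direction passed. Over these 10 settings 24 of the 123 members (19.5%) were higher in KPC-exosomes in each, 43 (35.0%) were lower in each, and the direction of 56 (45.5%) changed between settings. Over all 726 miRNAs the shares were 18.5%, 34.2% and 47.4%. At least 2-fold higher in each setting were 10 members (8.13%, against 8.54% of all 726). These were miR-7039-5p, miR-6985-5p, miR-6950-5p, miR-7014-5p, miR-6966-5p, miR-7051-5p, miR-7033-5p, miR-7002-5p, miR-7007-5p and miR-7016-5p. At least 2-fold lower in each were 14 members (11.4%, against 15.2% of all 726). Among them were miR-6915-5p, miR-6957-5p, miR-7005-5p, miR-6969-5p, miR-7036a-5p and miR-7042-5p.

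Among the members with the higher signal in KPC-exosomes, miR-7014-5p was bright on both arrays. Its signal was 705 ± 51.5 in KPC-exosomes against 110 ± 7.96 in MPDC-exosomes, which gave a log2 difference of 2.67 as measured and of 4.26 once normalized. Its probes gave 2.73 and 2.61 on the log2 scale before normalization. Its host gene is Ecm1, which encodes a secreted matrix protein, and the mature strand lies at chr3:95734947-95734968 on the minus strand. miR-6950-5p had 380 ± 29.0 in KPC-exosomes against 52.6 ± 4.03 in MPDC-exosomes, which gave a log2 difference of 2.85 as measured and of 4.48 once normalized, with 2.31 and 3.17 by its probes. Both members were thus several times brighter in KPC-exosomes by every probe.

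3 further members of this group had low signals. miR-6966-5p had 31.5 ± 2.70 in KPC-exosomes and 8.20 ± 1.53 in MPDC-exosomes, miR-7051-5p had 35.0 ± 3.46 and 13.9 ± 1.80, and miR-6962-5p had 15.7 ± 1.73 and 6.46 ± 1.49. Their log2 differences were 1.94, 1.33 and 1.28 before normalization and 6.06, 5.86 and 5.18 after it. The probes of miR-7051-5p gave -0.08 and 1.60 before normalization, so that its higher signal came from the longer probe. Normalization added 3.90 or more to each, against a median of 1.81. miR-6962-5p lies within Acvr1b, which encodes an activin receptor, and miR-7051-5p within Etfb, a subunit gene of an electron transfer flavoprotein of the mitochondria.

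The largest differences among the members higher in KPC-exosomes came mostly from 1 probe each. miR-7039-5p had 510 ± 49.2 in KPC-exosomes against 9.95 ± 1.44 in MPDC-exosomes, which gave a log2 difference of 5.68 as measured and of 9.77 once normalized. Its longer probe gave 491 ± 49.2 and 9.95 ± 1.44, and its shorter probe 18.3 ± 2.07 and -0.16 ± 1.00, the latter not detected. miR-6985-5p had 383 ± 39.7 in KPC-exosomes against 12.1 ± 1.57 in MPDC-exosomes, which gave a log2 difference of 4.98 as measured and of 9.20 once normalized. All of that signal came from the longer probe, while the shorter one gave 0.06 ± 0.93 and 1.32 ± 1.01, detected on neither array. In miR-7016-5p it was the shorter probe that was higher in KPC-exosomes, with 380 ± 38.8 against 83.7 ± 8.61, while the longer probe gave 40.7 ± 4.26 against 84.2 ± 8.55. The probes of these members follow, written 5′ to 3′ as DNA, with the base that only the longer probe has in capitals, beside those of miR-7014-5p, whose probes gave like differences.
miR-6985-5p, shorter probe: acatagcagccacc
miR-6985-5p, longer probe: acatagcagccaccC
miR-7039-5p, shorter probe: acgcgatgctctc
miR-7039-5p, longer probe: acgcgatgctctcC
miR-7016-5p, shorter probe: ctactctcgctccc
miR-7016-5p, longer probe: ctactctcgctcccC
miR-7014-5p, shorter probe: ctgtcccttccaca
miR-7014-5p, longer probe: ctgtcccttccacaG

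Probes that differ by 1 base mostly gave like differences between the arrays. In 94 members 2 or more probes were detected on both arrays, and the gap between the log2 differences of their probes had a median of 0.31, an upper quartile of 0.71 and a maximum of 3.23, that of miR-7016-5p. The gap was at least 1 in 17 members (18.1%), and the probes had opposite signs in 17 (18.1%). Over the 508 other miRNAs with 2 or more such probes the shares were 11.6% and 6.89%, and the median gap 0.17. These shares are given side by side as a description. Before normalization all probes of 5 members rose 2-fold or more in KPC-exosomes, and all probes of 45 members fell by as much. Most miRNAs of that array were lower, so mostly lower probes are not particular to the members. By summed signals, 11 of the 123 members detected on both arrays rose 2-fold or more and 72 fell. Over all 726 miRNAs the counts were 74 and 427. Counts by probe over all miRNAs are not given for this or for the next sentence. Of the members detected in KPC-exosomes 30 were detected by only some of their probes, and in MPDC-exosomes 20.

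**Figure D4:**
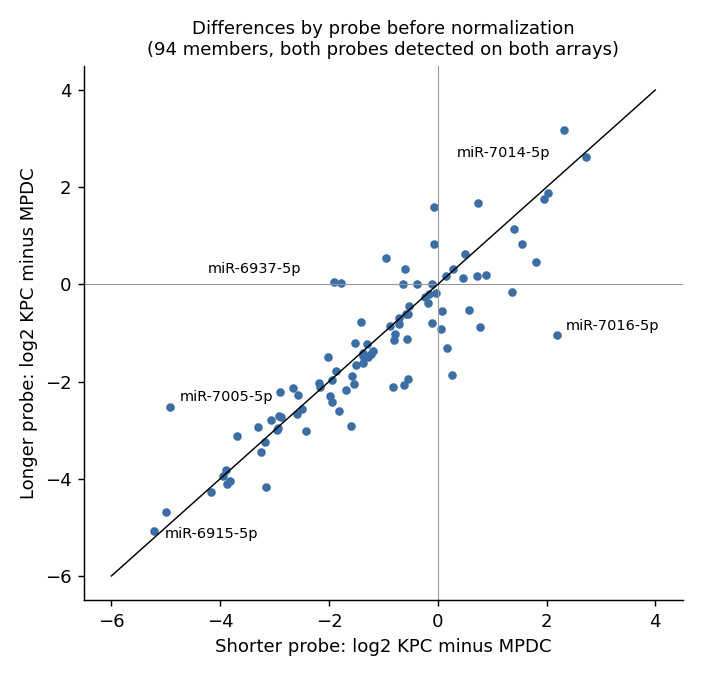
For 94 members with probes detected on both arrays, the log2 difference (KPC-exosomes minus MPDC-exosomes, before normalization) of the longer probe (vertical) is plotted against that of the shorter probe (horizontal), and the diagonal line marks equal differences. Most points lie near the line, and miR-7016-5p lies farthest from it with 2.18 by the shorter and -1.05 by the longer probe.

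Among the lower members, miR-6915-5p had the largest difference. Its signal was 9.37 ± 1.48 in KPC-exosomes against 331 ± 23.8 in MPDC-exosomes, which gave a log2 difference of -5.14 as measured and of -3.43 once normalized, with -5.22 and -5.08 by its probes. The host is Ankrd52, which encodes a regulatory subunit of protein phosphatase 6. miR-6957-5p had 16.0 ± 1.76 and 448 ± 32.0, a difference of -4.81 before and -2.96 after normalization, with -4.99 and -4.68 by its probes. miR-6918-5p had 3.35 ± 0.99 in KPC-exosomes against 63.9 ± 4.77 in MPDC-exosomes, which gave a log2 difference of -4.25 as measured and of -2.18 once normalized. Only its longer probe was detected in KPC-exosomes, and that probe alone gave -3.41.

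miR-6969-5p and miR-7005-5p were among the brightest members in MPDC-exosomes. miR-6969-5p had 315 ± 22.5 in KPC-exosomes against 5862 ± 416 in MPDC-exosomes, which gave a log2 difference of -4.22 as measured and of -2.55 once normalized, with -4.17 and -4.26 by its probes. It lies at chr17:28558475-28558496 on the minus strand, within Clps, which encodes colipase, a cofactor of pancreatic lipase that acinar cells secrete. miR-7005-5p had 339 ± 24.1 and 6180 ± 531, a difference of -4.19 before and -2.57 after normalization, and its probes gave -4.92 and -2.52. Its host Lama5 encodes the laminin alpha-5 chain of epithelial basement membranes. Both members were lower in KPC-exosomes by each probe and with or without normalization.

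The brightest member in MPDC-exosomes was miR-7036a-5p, with 1581 ± 113 in KPC-exosomes and 25094 ± 1777 in MPDC-exosomes, rank 41 of the 772 detected miRNAs and rank 12 of the 1031. The log2 difference was -3.99 before and -1.96 after normalization, with -3.88 and -4.11 by its probes. Its host Srrt encodes ARS2, a protein of the cap-binding complex with a role in miRNA processing. miR-7042-5p had 1253 ± 101 and 11782 ± 960, a difference of -3.23 before and -1.36 after normalization. Each of these members had the lower signal in KPC-exosomes although each was among the 5 brightest there.

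The other 3 of the 5 brightest members in KPC-exosomes had nearly equal signals on both arrays. miR-7047-5p, the brightest in KPC-exosomes, had 4217 ± 340 there and 4271 ± 340 in MPDC-exosomes, a log2 difference of -0.02. miR-6931-5p had 3142 ± 226 and 3850 ± 273, a difference of -0.29, and miR-6937-5p had 1577 ± 149 and 1779 ± 147, a difference of -0.17. After quantile normalization the same members were called higher in KPC-exosomes, with 1.99, 1.57 and 1.31. The probes of miR-6937-5p gave -1.90 and 0.05 before normalization. The call for each of these members thus came with the normalization. The host of miR-6931-5p is Dcakd and that of miR-6937-5p is Adi1.

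**Figure D5:**
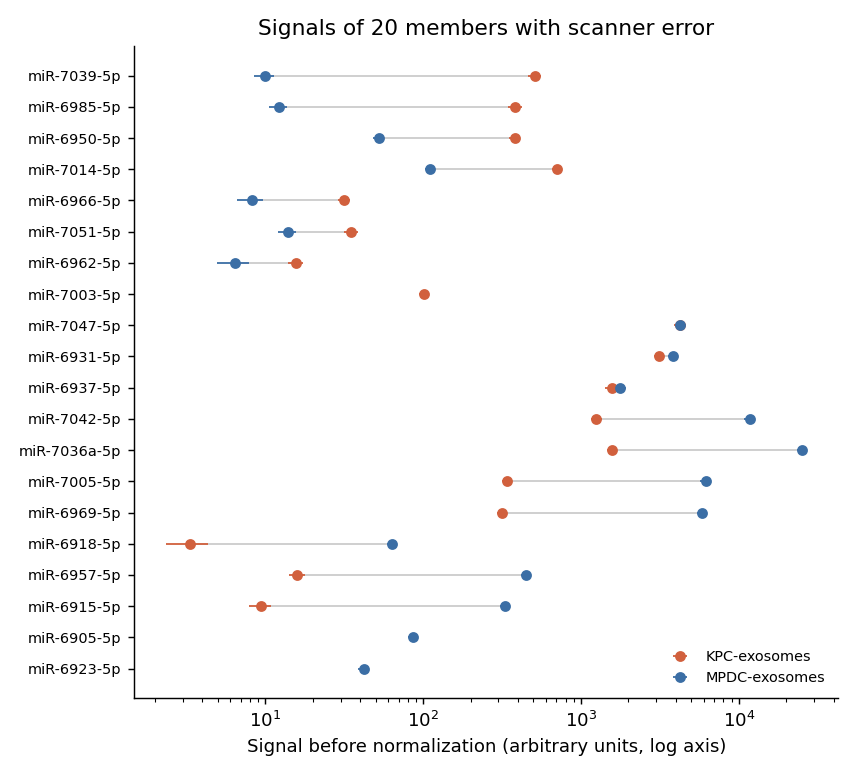
Signals before normalization (horizontal, log axis, arbitrary units) of 20 named members in KPC-exosomes and MPDC-exosomes, with the scanner error as bars and a grey line joining both arrays where both detected the member. miR-7039-5p (510 and 9.95) and miR-6915-5p (9.37 and 331) differ most, miR-7047-5p (4217 and 4271) does not separate, and miR-7003-5p, miR-6905-5p and miR-6923-5p have 1 point because 1 array did not detect them.

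For a member detected on 1 array only, the fold change is given as a nominal lower bound. Its signal was divided by the lowest signal of any detected miRNA on the other array, or by the sum of the member's probes there where that sum was higher. In KPC-exosomes only, miR-7003-5p had 101 ± 7.27 by both probes, while its probes summed to 0.80 in MPDC-exosomes. This gave a bound of 66.9-fold before normalization. Its host is Mybl2, which encodes a transcription factor of dividing cells. The other 3 were dim, with 16.3 ± 2.02 for miR-6917-5p, 11.1 ± 1.45 for miR-7065-5p and 8.85 ± 1.46 for miR-7006-5p. Their bounds before normalization were 4.08-fold, 5.05-fold and 1.75-fold. miR-7003-5p thus stood far above the other members found in KPC-exosomes only.

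The brightest members found in MPDC-exosomes only were miR-6905-5p with 86.7 ± 6.31, miR-6923-5p with 42.1 ± 3.41, miR-7037-5p with 38.3 ± 3.97, miR-6919-5p with 32.0 ± 2.67 and miR-7035-5p with 26.1 ± 2.70. Before normalization their bounds for the lower signal in KPC-exosomes were 61.7-fold, 28.4-fold, 27.2-fold, 10.1-fold and 15.8-fold. With normalized signals on both sides the bounds were 9.81-fold, 4.90-fold, 4.57-fold, 2.46-fold and 2.87-fold. All signal of miR-7037-5p came from its longer probe. Over the 31 members found in MPDC-exosomes only, this nominal bound was at least 2-fold for all 31 before normalization. After it the bound was at least 2-fold for 7, smaller for 3 and absent for 21. A count of 54 lower members hence holds 24 or more whose normalized signals do not bound the difference at 2-fold. Over all 305 miRNAs found in MPDC-exosomes only, the bound was at least 2-fold for 271 before normalization. After normalization it was at least 2-fold for 110 of the 305, smaller for 23 and absent for 172. Small or absent bounds were thus not particular to the members.

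Members with the same seed were compared next, since a shared seed gives shared target sites. The 176 members had 155 different seeds, 15 of them held by 2 members and 3 held by 3. The groups of 3 are shown with the seed in capitals.
miR-6911-5p: uGGGCUGAgugggucuguggcau
miR-7028-5p: uGGGCUGAggcuugggucaggag
miR-7079-5p: aGGGCUGAggcagugaguccug
miR-7030-5p: uGGGGAGGuggcugugcuaguc
miR-7075-5p: cGGGGAGGaggacaugguuuu
miR-7076-5p: aGGGGAGGugguauggucuca
miR-6922-5p: uGUGGGAGgggacuguagagagg
miR-6993-5p: aGUGGGAGaaacgggugucuguc
miR-7008-5p: uGUGGGAGaugccaggagccguac

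In the first group miR-6911-5p had 20.8 ± 2.35 in KPC-exosomes and 88.6 ± 6.82 in MPDC-exosomes, miR-7028-5p had 36.6 ± 2.92 and 162 ± 11.6, and miR-7079-5p was detected on neither array. The log2 differences of the detected pair were -2.09 and -2.15 before normalization and -0.23 and -0.25 after it. In the second group miR-7075-5p had 120 ± 11.5 and 101 ± 9.32, a difference of 0.25 before normalization, while miR-7030-5p and miR-7076-5p had 4.54 ± 1.1 and 8.55 ± 1.31 in MPDC-exosomes and no detected signal in KPC-exosomes. The host of miR-7076-5p is Ctrb1, which encodes chymotrypsinogen B of the pancreatic acinar cell. In the last group miR-6922-5p had 26.2 ± 2.30 and 66.5 ± 5.02, miR-6993-5p had 7.39 ± 1.42 and 12.7 ± 1.69, and miR-7008-5p had 35.6 ± 3.23 and 138 ± 11.5. All 3 were lower in KPC-exosomes before normalization, with -1.35, -0.78 and -1.96. After it they had 0.51, 3.60 and -0.04, and the last of these is smaller than its scanner error. The 3 members were thus no longer all lower, and the largest value, 3.60, belonged to miR-6993-5p, the dimmest of them.

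Of the pairs with a member named above, miR-6965-5p shares its seed with miR-7047-5p and had 119 ± 8.58 in KPC-exosomes against 527 ± 37.3 in MPDC-exosomes, with a log2 difference of -2.14 beside -0.02 for miR-7047-5p. miR-6975-5p shares its seed with miR-7005-5p and was found in MPDC-exosomes only, at 9.34 ± 1.57. miR-6967-5p shares its seed with miR-7016-5p and was found in MPDC-exosomes only, at 11.7 ± 1.65, while miR-7016-5p was brighter in KPC-exosomes, with 421 ± 39.1 against 168 ± 12.1. A seed was also shared with a miRNA outside the members by 38 members. Examples are miR-6915-5p with miR-540-3p, miR-7003-5p with miR-491-5p, and the last group with miR-705.

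The labelled origin of the vesicles was checked on miRNAs known from epithelium, pancreas and blood. Of 6 epithelial miRNAs, the miR-200 family and miR-205-5p, 5 were detected in KPC-exosomes with a summed signal of 98.8 and all 6 in MPDC-exosomes with 1763, and miR-205-5p was the one without a signal in KPC-exosomes. Of 5 pancreas miRNAs 1 was detected on each array, miR-217-5p in KPC-exosomes (60.9 ± 3.42) and miR-148a-3p in MPDC-exosomes (1190 ± 88.5), while miR-216a-5p, miR-216b-5p and miR-375-3p had no detected signal. Of 5 blood cell miRNAs 4 were detected on each array, with summed signals of 265 and 426. The blood cell miRNAs went different ways before normalization, with miR-142a-3p higher in KPC-exosomes (188 against 29.1), miR-142a-5p found only there, miR-451a and miR-223-3p lower (-2.66 and -2.52 on the log2 scale) and miR-150-5p found only in MPDC-exosomes. The 5 epithelial miRNAs measured on both arrays were lower in KPC-exosomes before normalization and stayed lower after it, with log2 differences of -5.99 to -0.39, whereas the members' median turned from -1.39 to 0.45. The part of these lists in the members' differences was not tested.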

How the data were processed

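RNA of KPC-exosomes and of MPDC-exosomes was hybridized to 1 Agilent mouse miRNA array each, so no test, SD or p-value was computed. The authors deposited the scanner output, whose probe signals and errors are background-subtracted intensities in arbitrary units; the file header names Agilent Feature Extraction 10.7.1.1 and the labels name version 9.1. A table of log2 values, 1 per miRNA and array, was deposited by the authors after normalization in GeneSpring 13.1. Here the total signals of the probes above 3 errors were summed per miRNA, a floor of 0.1 was set for miRNAs without such a probe, and the log2 signals of 1881 miRNAs and 21 controls were quantile normalized, which came within 1.11e-05 of the deposited log2 values. Calls required detection on 1 array or both and a difference of 2-fold or more. The scanner error covers the measurement on these arrays only, and precision is limited by having 1 array per condition.

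Mature and hairpin sequences were taken from a RefSeq table of GRCm38.p6, which held 176 of the 200 members by name, and host genes were genes of RefSeq whose span holds the hairpin. The members, the lists and the alternatives were chosen with earlier results of these data known. Named members were the 5 largest differences in each direction on both arrays, after and without normalization, the 5 brightest on each array, the 5 brightest detected on 1 array only, and those in seed groups of 3 or with another named member; any other name was chosen after its values were seen. The alternatives were 8 other scalings, summaries or sources of the signals, no normalization, and other limits, floors and filters on the calls. The summaries and the quantile normalization were tested on simulated data. Python 3.11.15 with numpy 2.4.6, pandas 2.3.3, scipy 1.17.1 and matplotlib 3.10.9, and R 4.3.3 with limma 3.58.1 (normexp with an offset of 50) were used.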

Additional observations from a re-analysis of the deposited data

How the results depend on the processing

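Under the alternatives to normalization and signal, the median log2 difference of the members detected on both arrays was 0.45 after quantile normalization, 0.44 with the brightest probe, 0.15 with scaling by the 75th percentile, 0.24 by the median, 0.0855 with the processed signal, and 0.19 with normexp. It turned negative without normalization (-1.39), with the 4 spike-in controls (-1.42), with quantiles taken only over miRNAs that both arrays detected (-0.0135), and with only probes detected on both arrays and no normalization (-1.31), an alternative chosen after seeing the data. The members' median differed from that of all miRNAs by -0.10 to 0.02 in these settings. The 53 higher and 54 lower members became 15 and 103 without normalization, 15 and 105 with the spike-in controls, and 30 and 15 with normexp, while 11 were higher with only probes detected on both arrays. With a 4-fold threshold 30 were higher. With detection on both arrays 23 were lower, with a difference above 2 scanner errors 23, and with lower bounds in place of the floor 30. Over all miRNAs the 339 higher and 460 lower became 120 and 732 without normalization, and 155 were lower with detection on both arrays. For the other alternatives no counts over all miRNAs are given, so those changes cannot be read as particular to the members. The cause of the changes in the members' counts was not tested, apart from the members that fewer signals, a stricter threshold or bounds leave out.

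Of the named members, 4 called higher turned negative without normalization, with the spike-in controls and with only shared probes: miR-6931-5p (-0.29, -0.32, -0.29), miR-6937-5p (-0.17, -0.20, -0.17), miR-6993-5p (-0.78, -0.80, -0.78) and miR-7047-5p (-0.0183, -0.0433, -0.0183). Detection counts stayed within 1.5 times under the limits of 2 and 5 errors and with most spots well above background. With the brightest probe the median signal fell to 16.9 in KPC-exosomes and to 38.2 in MPDC-exosomes. The GC share of members detected on both arrays exceeded that of undetected members by 8.41 percentage points over all probes, by 6.32 in the mature sequence and by 10.0 in the longest probe. No paired analysis was possible because each condition had 1 array. Signals within a few errors of background, as in most undetected members, limit what these arrays can separate.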
